A study of Mus musculus with 435 samples.

Results

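Arrays of the liver of C57 mice on a low-fat diet are compared here between late weeks (9, 10 and 11) and early weeks (1 and 3). They were chosen from their titles by strain, diet and week and number 49 of the 435 arrays of the series. Of these 20 are early, 10 at each week, and 29 are late, 10 at week 9, 10 at week 10 and 9 at week 11. On every array liver RNA carried the dye Cy5, and Cy3 marked a reference pooled from C57 mouse tissues, among them muscle, brain, heart, lung, testes, kidney, fat and liver itself. C57 and A/J are inbred laboratory strains. The same weeks hold 48 arrays of C57 mice on a high-fat diet, 49 of A/J mice on the low-fat diet and 50 of A/J mice on the high-fat diet, set against the same kind of reference. Titles name strain, diet and week, but not the mice that arrays share, the age of the mice or the time of hybridisation. Age, time on the diet and order of processing therefore cannot be told apart within the arm, and p-values measure the spread between weekly means, which may be technical.

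The liver is built mainly of hepatocytes, which secrete plasma proteins such as albumin and transthyretin and detoxify foreign compounds through cytochromes P450 and conjugating enzymes. When the diet holds little fat, the organ makes fatty acids from carbohydrate through enzymes such as Fasn and Scd1. In the growing animal, genes of the fetal liver such as Afp and Gpc3 are shut down while secretion and detoxification mature. In bulk tissue, fewer cells of a type and less RNA per cell cannot be told apart.

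Values are log2 ratios of liver over reference, centred on each array's median, so that 0 is the median probe of an array and not an equal amount of RNA. Measured probes per array ran from 9698 to 13036 early (median 11567.5) and from 5127 to 13866 late (median 11393). Correlations with the median of all arrays of the series were 0.371 to 0.741 early and 0.344 to 0.757 late. Hepatocyte markers stood high at both times, with 18 of 19 above 0 early and 19 of 19 late and median levels of 0.65 and 0.59.

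Early and late arrays also differed in which probes gave a value at all. Of 14711 probes with 1 gene symbol, 161 were measured on at least 80% of late and at most 20% of early arrays, and 23 the other way round. For the 161, the median share of arrays with a value was 20% at week 1, 0% at week 3, 30% at week 4 and 100% at week 5. It was 30% at week 6, 100% at weeks 7 and 9, 80% at weeks 8 and 10 and 88.9% at week 11. Week 6 had the share of week 4. Of its 10 arrays, 2 correlated below 0.15 with the median of all arrays. The arrays of week 6 measured a median of 8228 probes, those of week 4 10840.5 and those of week 5 11745. Those of week 8 measured fewer still (7251.5), with a share of 80%. What sets the share of a week was not tested. In C57 high-fat the median share was 40% at week 4, 100% at week 5 and 60% at week 6. In A/J low-fat it was 40%, 100% and 60%, and in A/J high-fat 80%, 100% and 70%. Week 8 had 20%, 40% and 40% in these 3 arms. Of its 10 arrays in each, 9, 10 and 9 correlated below 0.15 with the median of all arrays. Probes of a single gene went opposite ways, and for these the change lay between week 4 and week 5 in C57 low-fat. Hspa1a, the inducible Hsp70 chaperone, has 17 probes of 1 accession on the array, of which probe 9474 was measured on 20 early and 0 late arrays and the next, probe 9475, on 0 early and 26 late arrays. Among the 17 probes of Tcf3, a basic helix-loop-helix transcription factor, probe 7883 was measured on 19 early and 0 late arrays and probe 7884 on 0 early and 27 late arrays. Over all C57 low-fat weeks, Hspa1a probe 9474 gave a value on 37 of 40 arrays of weeks 0 to 4 and on 0 of 69 arrays of weeks 5 to 11. In C57 high-fat the counts were 34 of 40 and 6 of 68, in A/J low-fat 34 of 39 and 10 of 69, and in A/J high-fat 33 of 39 and 8 of 69. No label names an array lot, a reference batch or a processing date. Every difference between early and late weeks given here spans these changes in detection, and their part in it was not tested.

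Of 7919 probes for 7510 genes, 63 differed between late and early weeks at an adjusted p under 0.05 (0.796%), in limma over weekly means with Benjamini-Hochberg adjustment. The late weeks were higher for 32 probes (0.404%) and lower for 31 (0.391%). At an unadjusted p under 0.05 there were 1275 probes (16.1%). The split depends on centring. With each array centred over all its measured probes it was 33 higher and 80 lower, with no centring 16 and 60, and after quantile normalization 284 and 646, while the median of all probes went from -0.02 to -0.07, -0.11 and -0.10. Differences ran from 0.65 to 2.15 on the log2 scale among the 32 and from -0.74 to -1.62 among the 31. In all 63 the 3 late weekly means lay to one side of both early means, which was so for 2694 of the 7919 probes (34%), 1227 upward (15.5%) and 1467 downward (18.5%).

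Most called genes passed the array median on the way, though how many of all probes tested did so was not computed. The 32 moved from a median level of -0.59 to 0.31, and 26 of them crossed 0. The 31 moved from 0.25 to -0.71, and 27 crossed 0. The spread among arrays of a week moved with them, its median SD for probes that fell being 0.24 early and 0.65 late, for those that rose 0.58 and 0.45, and for all probes 0.36 and 0.47. The number of calls rests on few weekly means. Limma called 0 probes without week 1 (498 at an unadjusted p under 0.05), 0 without week 10 (909) and 1 without week 3 (915). It called 49 without week 9 and 52 without week 11. All 63 kept their sign each time, as they had to, since their early and late weekly means do not overlap.

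**Figure D1:**
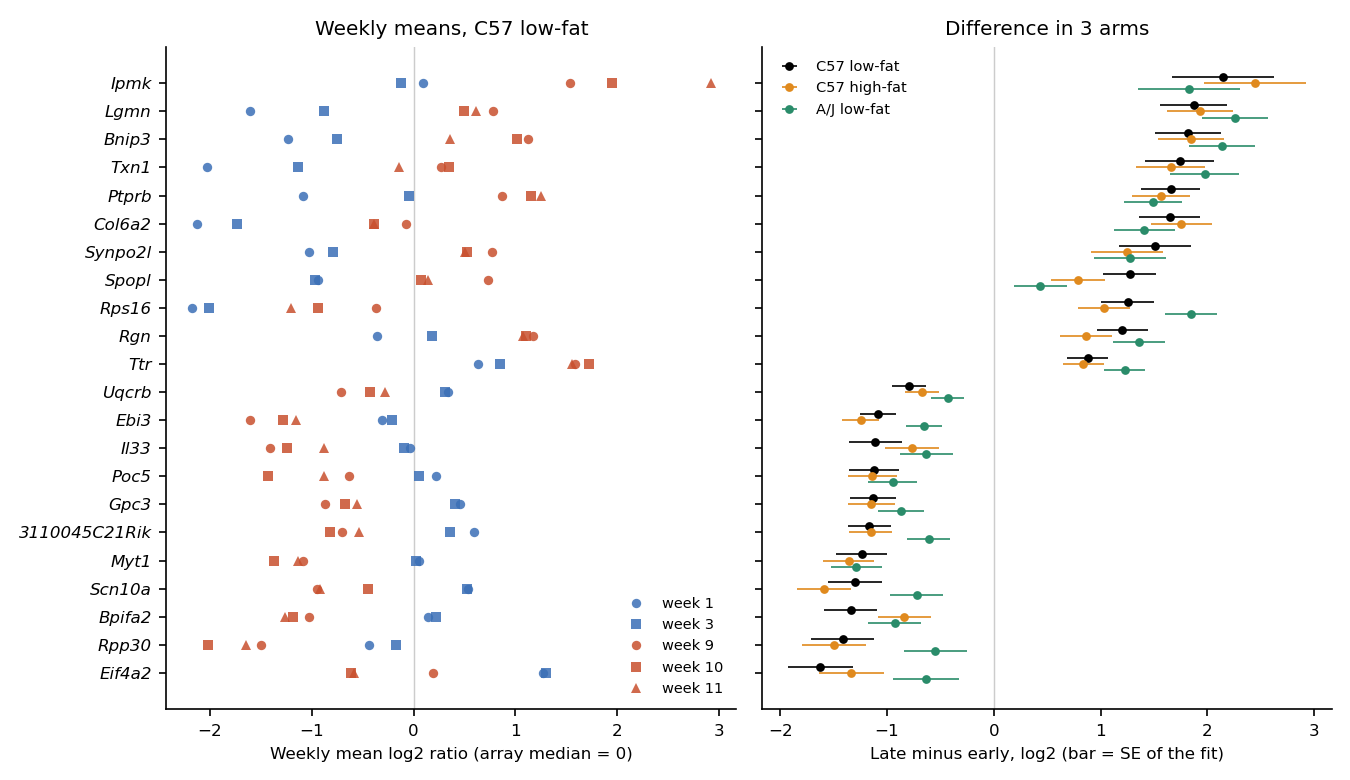
Left, weekly mean log2 ratio (x axis, array median at 0) of 22 genes in C57 low-fat liver, with weeks 1 and 3 in blue and weeks 9, 10 and 11 in red; right, late minus early with its standard error in 3 arms. Early and late weekly means are separate for each gene, from Ipmk at 2.15 down to Eif4a2 at -1.62, and the differences of C57 high-fat and A/J low-fat lie on the same side of 0.

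Of the called genes, 3 (2 that rose, 1 that fell) were picked because letters of well-known promoter motifs occur before their start sites. The genes are described next, and those sequences are shown here. They are RefSeq windows on GRCm38.p6, all on the minus strand, of Bnip3 (chr7:138909507-138909756), Txn1 (chr4:57956412-57956661) and Gpc3 (chrX:52613975-52614224), each the 250 bases before the start. Capitals mark matches on either strand. In Bnip3 they are of ACGTG, the core of sites for the hypoxia factor, with 2 overlapping matches from the 2 strands of CACGTG. In Txn1 they are of TATAAA and in Gpc3 of CCAAT, both nearer the far end of the window than the start. Whether any match acts as a site was not tested.
Bnip3: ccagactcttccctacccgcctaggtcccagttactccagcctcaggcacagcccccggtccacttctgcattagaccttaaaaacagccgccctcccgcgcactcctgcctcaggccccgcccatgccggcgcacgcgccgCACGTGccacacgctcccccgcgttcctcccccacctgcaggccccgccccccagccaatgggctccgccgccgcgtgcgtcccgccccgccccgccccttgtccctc
Txn1: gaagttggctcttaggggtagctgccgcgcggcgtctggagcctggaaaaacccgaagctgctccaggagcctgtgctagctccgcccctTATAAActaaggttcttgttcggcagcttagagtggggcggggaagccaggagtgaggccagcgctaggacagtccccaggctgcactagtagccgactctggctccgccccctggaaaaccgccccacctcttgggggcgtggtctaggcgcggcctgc
Gpc3: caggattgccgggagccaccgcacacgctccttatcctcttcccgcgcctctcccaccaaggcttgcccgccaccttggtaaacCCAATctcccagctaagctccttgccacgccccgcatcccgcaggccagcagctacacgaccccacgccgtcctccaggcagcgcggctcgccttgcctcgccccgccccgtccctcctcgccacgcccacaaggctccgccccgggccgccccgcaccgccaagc
A window was found for 22 of the 32 genes that rose and 27 of the 31 that fell. ACGTG occurred in 6 of the 22 (27.3%), 3 of the 27 (11.1%) and 16.6% of all 32851 windows of this length. TATAAA occurred in 3 (13.6%), 2 (7.41%) and 12.4%, and CCAAT in 10 (45.5%), 10 (37%) and 33.8%. The antioxidant response core TGACNNNGC was in 3 (13.6%), 3 (11.1%) and 10.2%. These shares describe letters in a window and not the binding of a factor.

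The 4 genes with the largest rises were Ipmk, Lgmn, Bnip3 and Txn1. Bnip3, a mitochondrial protein that promotes autophagy of mitochondria, had weekly means of -1.23 and -0.75 at weeks 1 and 3 and of 1.12, 1.02 and 0.36 at weeks 9, 10 and 11. It rose by 1.82 ± 0.31 (SE), or 3.53-fold (limma adjusted p = 0.0273). Of its single arrays 15 of 24 late arrays lay above all 16 early ones, and 1 late array, at -5.57, lay below all of them. Txn1, the cytosolic thioredoxin that reduces protein disulfides, went from -2.03 and -1.14 to 0.27, 0.34 and -0.14. Its rise was 1.74 ± 0.32, or 3.35-fold (limma adjusted p = 0.0303), and 18 of 23 late arrays lay above all 20 early ones. The lysosomal protease Lgmn stood at -1.61 and -0.88 early and at 0.78, 0.49 and 0.61 late. It rose by 1.87 ± 0.31, or 3.66-fold (limma adjusted p = 0.0273), and 22 of 23 late arrays lay above all 15 early ones. Ipmk, an inositol phosphate kinase, had the largest difference among the 63, 2.15 ± 0.48 (limma adjusted p = 0.0463), from 0.09 and -0.12 to 1.53, 1.95 and 2.92. Its week 1 mean rests on 5 arrays with an SD of 1.34, its arrays overlapped widely, and 13 of 29 late arrays lay above all 15 early ones.

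Among hepatocyte genes Ttr, the carrier of thyroxine and of retinol-binding protein, was the 1 marker of 19 tested that passed. Its weekly means were 0.63 and 0.85 early and 1.58, 1.72 and 1.56 late. It rose by 0.88 ± 0.19, or 1.84-fold (limma adjusted p = 0.0431), and 22 of 29 late arrays lay above all 20 early ones. Of the 19 markers, 13 had positive and 6 negative differences, from -0.86 to 0.88 with a median of 0.16. In limma 2 of them had an unadjusted p under 0.05. Rgn, regucalcin, a calcium-binding gluconolactonase abundant in liver, stood at -0.36 and 0.18 early and at 1.17, 1.11 and 1.08 late. Its rise was 1.20 ± 0.24, or 2.30-fold (limma adjusted p = 0.0303), and early arrays ran from -1.21 to 0.89 (median -0.01) and late arrays from 0.40 to 1.69 (median 1.19). The 3 late weekly means of Rgn lay closer together than its 2 early ones. Rps16, a protein of the small ribosomal subunit, was at -2.17 and -2.00 early and at -0.37, -0.94 and -1.20 late, a rise of 1.25 ± 0.25 (limma adjusted p = 0.0303) that stayed below 0. Ribosomal protein genes have near-identical processed copies, so what this probe reports is uncertain.

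Ptprb, Col6a2, Synpo2l and Spopl were the others among the 10 largest rises. Ptprb, a receptor phosphatase of endothelium, went from -1.08 and -0.05 to 0.87, 1.15 and 1.25, a rise of 1.66 ± 0.27 (limma adjusted p = 0.0273), and 20 of 27 late arrays lay above all 16 early ones. Col6a2, a chain of collagen VI, went from -2.12 and -1.74 to -0.08, -0.39 and -0.39 (1.65 ± 0.29, limma adjusted p = 0.0273) and so stayed below 0 at each late week. Synpo2l, a cytoskeletal protein of striated muscle, went from -1.02 and -0.79 to 0.77, 0.52 and 0.51 (1.51 ± 0.34, limma adjusted p = 0.0463). In single arrays 24 of 28 late arrays lay above all 18 early ones. Spopl, an adaptor of a cullin ubiquitin ligase, went from -0.94 and -0.96 to 0.73, 0.07 and 0.15 (1.27 ± 0.25, limma adjusted p = 0.0303), and its week 9 mean holds 1 array at 4.56.

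Of the 10 largest falls, those of Gpc3, Ebi3, Il33 and Eif4a2 are given first. Gpc3, a cell-surface heparan sulfate proteoglycan high in fetal liver, had weekly means of 0.46 and 0.41 early and of -0.87, -0.67 and -0.56 late. Its difference was -1.13 ± 0.22, 2.19-fold lower (limma adjusted p = 0.0303), and 24 of 29 late arrays lay below all 20 early ones. For Gpc3 early arrays ran from -0.12 to 0.96 (median 0.40) and late arrays from -2.48 to 0.25 (median -0.68). Ebi3, the shared subunit of the cytokines IL-27 and IL-35, was at -0.31 and -0.21 early and -1.60, -1.28 and -1.16 late (-1.09 ± 0.17, limma adjusted p = 0.0273), and 15 of 28 late arrays lay below all 16 early ones. Il33, an alarmin of the IL-1 family, was at -0.04 and -0.10 and then at -1.41, -1.24 and -0.88 (-1.11 ± 0.25, limma adjusted p = 0.0463). Its arrays overlapped far more, and 7 of 25 late arrays lay below all 16 early ones. Eif4a2, an RNA helicase of translation initiation, was at 1.27 and 1.30 and then at 0.19, -0.61 and -0.59 (-1.62 ± 0.31, limma adjusted p = 0.0303), and 21 of 26 late arrays lay below all 20 early ones.

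**Figure D2:**
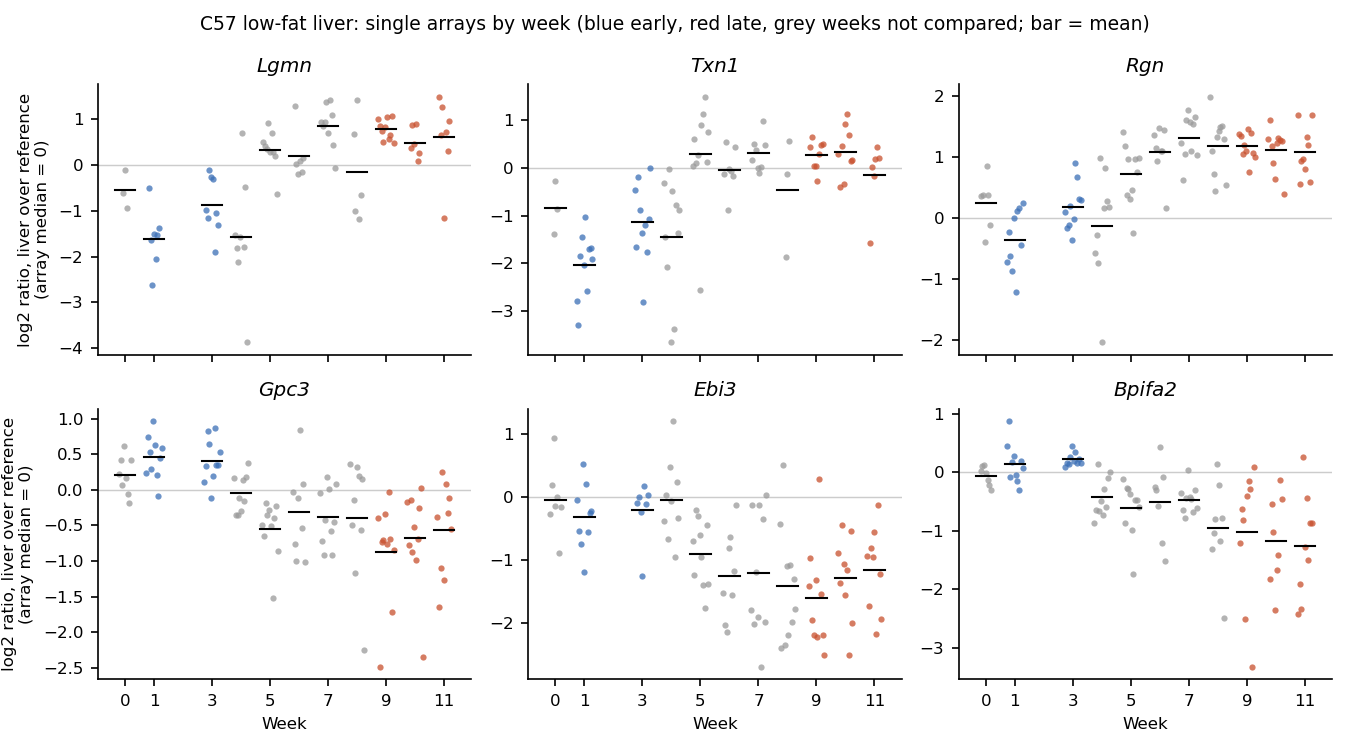
Log2 ratio of single C57 low-fat arrays (y axis, array median at 0) by week (x axis) for Lgmn, Txn1, Rgn, Gpc3, Ebi3 and Bpifa2; blue, early; red, late; grey, weeks not compared, without 2 arrays of week 6 that did not resemble the others; bars, weekly means. Txn1 has a mean of -1.44 at week 4 and 0.29 at week 5, and late values of Gpc3 and Bpifa2 are spread more widely than early ones.

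The other 6 of the 10 largest falls were those of Bpifa2, Scn10a, Myt1, Rpp30, Poc5 and 3110045C21Rik. Bpifa2, a secreted protein of salivary glands, went from 0.15 and 0.22 to -1.03, -1.18 and -1.26 (-1.34 ± 0.25, limma adjusted p = 0.0303). The SD among its arrays was 0.33 and 0.11 at the early weeks and 0.77 to 1.15 at the late ones. Scn10a, a sodium channel of sensory neurons, went from 0.54 and 0.52 to -0.95, -0.44 and -0.92 (-1.30 ± 0.25, limma adjusted p = 0.0303). Myt1, a zinc finger factor of the nervous system, went from 0.06 and 0.03 to -1.08, -1.37 and -1.13 (-1.24 ± 0.24, limma adjusted p = 0.0303). Both thus stood at or above the array median early and below it at each late week. Rpp30, a subunit of ribonuclease P, went from -0.43 and -0.17 to -1.50, -2.02 and -1.64 (-1.42 ± 0.30, limma adjusted p = 0.0388). The centriole protein gene Poc5 (-1.12 ± 0.23, limma adjusted p = 0.0357) and 3110045C21Rik (-1.17 ± 0.20, limma adjusted p = 0.0273) had every early weekly mean above 0 and every late one below it. Uqcrb, a subunit of respiratory complex III, went from 0.34 and 0.31 to -0.72, -0.42 and -0.28 (-0.80 ± 0.16, limma adjusted p = 0.0303).

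Further called genes were picked by role after their values were seen, and stand for no group. Tmlhe, the first enzyme of carnitine synthesis, rose (0.99 ± 0.20), as did Pfkfb2, which sets the level of the glycolytic activator fructose 2,6-bisphosphate (0.93 ± 0.18), and the sugar carrier Slc5a9 (1.03 ± 0.23). Pdk2, a kinase that switches off pyruvate dehydrogenase, fell (-0.91 ± 0.20). Notum, a secreted inhibitor of Wnt ligands, rose (0.77 ± 0.17), and Hes1, a repressor downstream of Notch, fell (-1.08 ± 0.24), as did Robo4, an endothelial guidance receptor (-1.01 ± 0.20), and the semaphorin Sema6d (-1.08 ± 0.20). Slbp, which binds histone mRNA, rose (0.99 ± 0.20), and the lamin gene Lmnb2 fell (-1.06 ± 0.23). The guanylin gene Guca2a (1.14 ± 0.22) and the nuclease gene Dnase1 (0.89 ± 0.19) rose, and Parp9, of the interferon response, fell (-0.79 ± 0.16). Limma adjusted p-values of all 63 lay between 0.0273 and 0.0463.

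Lists of genes for processes and cell types had at most 1 called member each. Of all 7510 genes tested, limma called 61 (0.812%), and 1205 had an unadjusted p under 0.05. Read beside all genes tested (median -0.02, 47.8% positive), the cytosolic ribosome list had the highest share of positive values of any list, with 29 of 38 positive and a median of 0.23. Limma called 1 of them, Rps16, and 14 had an unadjusted p under 0.05. Values of members that did not pass ran from -0.66 ± 0.27, adjusted p = 0.240 for Rps19 to 1.00 ± 0.45, adjusted p = 0.277 for Rpl30. In xenobiotic metabolism limma called 0 of 36 (12 at an unadjusted p under 0.05), with 22 positive and a median of 0.14. The 2 largest values there were those of the cytochrome Cyp2f2 (1.29 ± 0.32, adjusted p = 0.0602) and the glutathione transferase Gsta3 (1.23 ± 0.33, adjusted p = 0.0823). In the respiratory chain 1 of 50 was called, the fall of Uqcrb, with 28 positive and a median of 0.06. Other subunits of the same complex had positive values that did not pass, Uqcrq 0.83 ± 0.24, adjusted p = 0.112 and Uqcrh 0.99 ± 0.36, adjusted p = 0.194. In the antioxidant list Txn1 was the 1 call of 16, and its other members ran from -1.02 ± 0.30, adjusted p = 0.113 for Gpx3, the plasma glutathione peroxidase, to 0.66 ± 0.20, adjusted p = 0.125 for the peroxiredoxin Prdx1, all by limma.

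**Figure D3:**
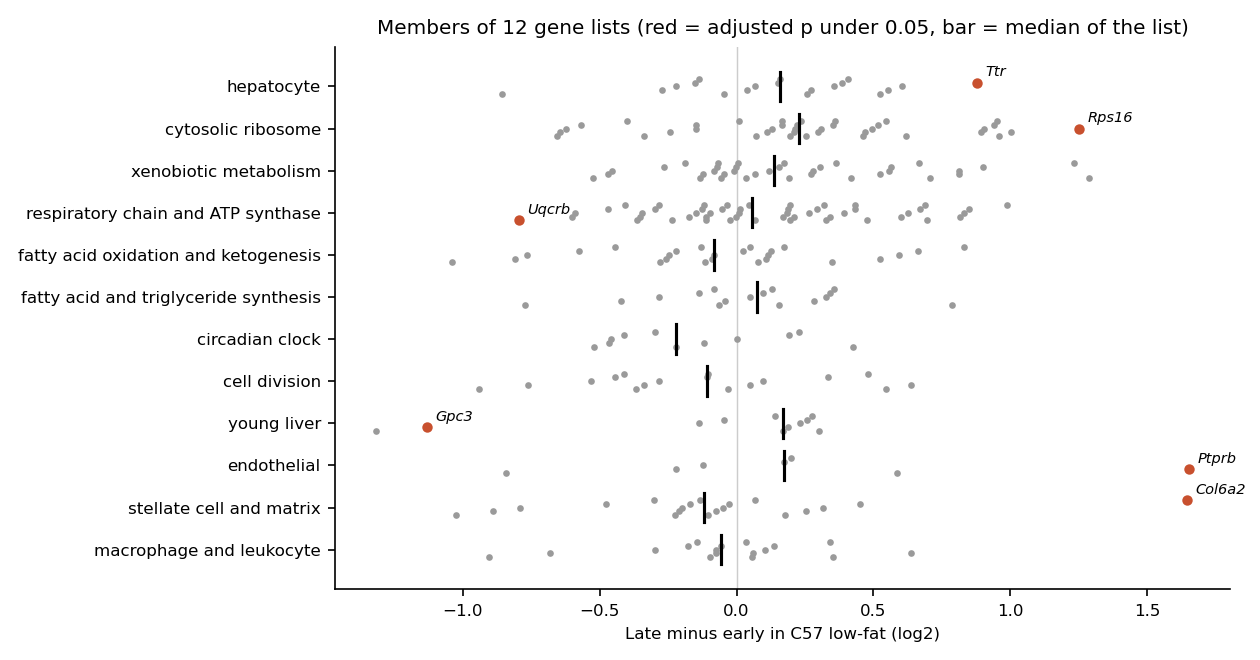
Late minus early in C57 low-fat liver (x axis, log2) for each tested member of 12 gene lists (y axis); red, adjusted p under 0.05; black bar, median of the list. The medians run from -0.22 for the circadian clock to 0.23 for the cytosolic ribosome, and no list has more than 1 called member.

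No gene of fat synthesis, fat oxidation or the clock passed in limma. With 0.812% of all genes called, lists of this size would hold few calls or none. In fatty acid and triglyceride synthesis it called 0 of 16 (1 at an unadjusted p under 0.05), with a median of 0.07. The desaturase Scd1 had -0.30 and 0.09 early and 0.43, -0.04 and 0.32 late (0.34 ± 0.21, limma adjusted p = 0.435). The synthase Fasn had 0.36 and 0.22 early and -0.20, -0.06 and 0.27 late (-0.29 ± 0.21, limma adjusted p = 0.538). Early and late weekly means of both overlapped. In fatty acid oxidation 0 of 25 passed (4 unadjusted, median -0.08), from the dehydrogenase Acads (-1.04 ± 0.27, adjusted p = 0.0823) to the receptor Ppara (0.83 ± 0.45, adjusted p = 0.374). In the circadian clock 0 of 11 passed (1 unadjusted, median -0.22). The repressor Per2 had -0.47 ± 0.33, adjusted p = 0.526, the output factor Dbp -0.30 ± 0.26, adjusted p = 0.632 and the receptor Nr1d1 0.23 ± 0.22, adjusted p = 0.679 in limma. Alb, albumin, was at 0.77 and 0.64 early and 1.25, 1.05 and 1.63 late, a difference of 0.61 ± 0.23 that missed the threshold (limma adjusted p = 0.203), although its weekly means did not overlap.

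Lists of young liver, growth hormone and other cell types gave single calls or none. In the young liver list Gpc3 was the 1 call of 11, with 7 positive and a median of 0.17. The imprinted RNA gene Meg3 had -1.32 ± 0.38, adjusted p = 0.112, and the imprinted growth factor Igf2 0.30 ± 0.23, adjusted p = 0.554 in limma. Among growth hormone dependent genes 0 of 10 passed (3 unadjusted), where the hormone's receptor Ghr had 1.03 ± 0.37, adjusted p = 0.189 and the male steroid enzyme Hsd3b5 0.52 ± 0.18, adjusted p = 0.172. In cell division 0 of 17 passed (5 unadjusted, median -0.11). For macrophages and leukocytes limma called 0 of 17 (3 unadjusted, median -0.06) and for bile duct 0 of 7 (1 unadjusted, median -0.01). For matrix cells 1 of 20 was called, Col6a2, with 14 negative and a median of -0.12, and Timp3 had -1.03 ± 0.32, adjusted p = 0.131. For endothelium 1 of 7 was called, Ptprb, with a median of 0.17, and the junction protein Cdh5 had -0.22 ± 0.27, adjusted p = 0.750. Of tissues in the reference, skeletal muscle had 0 of 13 called (1 unadjusted, median -0.18) and kidney 0 of 9 (4 unadjusted, median -0.19). Afp and Igf1 were on the array but had values on fewer arrays than the test required.

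On the whole time course most called probes were near their early level at week 4 and nearer their late level from week 5 on. With the early mean of a probe as 0% and its late mean as 100%, probes that rose had a median position of 27.5% at week 0, 26.5% at week 4, 97.3% at week 6 and 96.5% at week 7, and week 8 stood at 63.7%. Probes that fell were at 20.9% at week 0, 11.6% at week 4, 73.1% at week 5, 68.1% at week 6, 73.2% at week 7 and 85.3% at week 8. At week 4, 25 of 32 and 27 of 31 were nearer the early level, and at week 7 all 32 and 23 of 31 were nearer the late level. Lgmn had weekly means of -1.56 at week 4 and 0.34 at week 5. Ipmk differed, with 1.90 at week 4 already. Across probes, the weekly means of weeks 1, 3 and 4 correlated with each other at 0.81 to 0.89 those of early with late weeks at 0.48 to 0.71, and those of the late weeks with each other at 0.60 to 0.77. Weeks 1 and 3 correlated with weeks 5 to 7 at 0.46 to 0.66. Week 11 correlated at 0.71 with week 1, 0.69 with week 3 and 0.72 with week 4. With later weeks it correlated at 0.62 (week 5), 0.70 (week 6), 0.56 (week 7), 0.73 (week 8), 0.60 (week 9) and 0.77 (week 10). Over all probes week 11 was thus not set apart from the early weeks. Arrays of all weeks share the kind of reference.

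**Figure D4:**
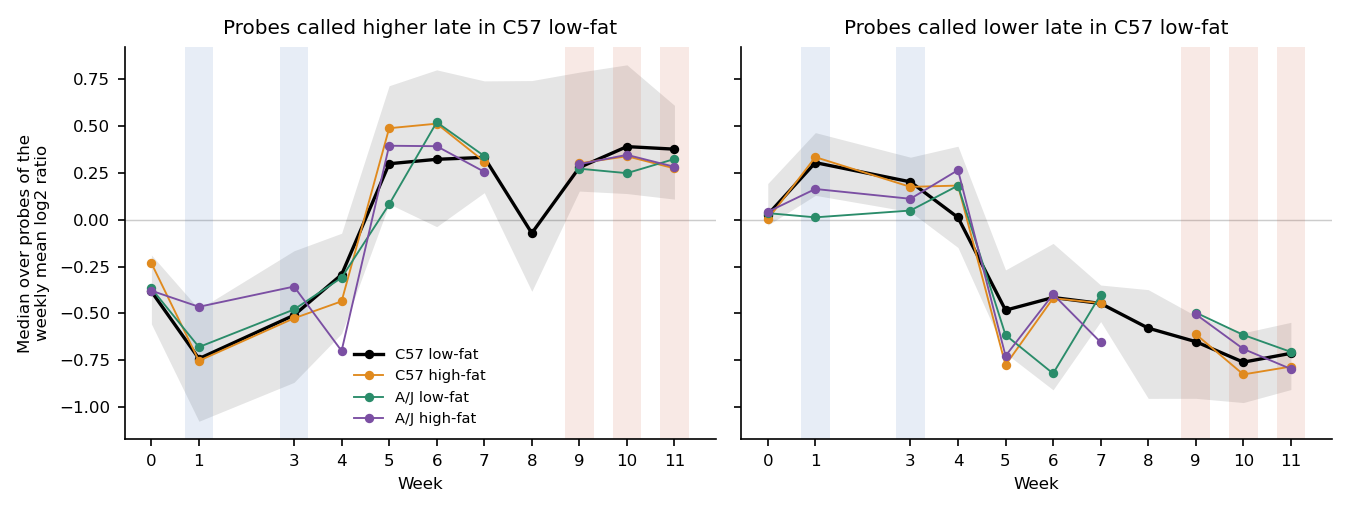
Median over probes of the weekly mean log2 ratio (y axis) by week (x axis) for the 32 probes called higher (left) and the 31 called lower (right) in C57 low-fat; black, C57 low-fat with the quartiles shaded; colours, the other arms, with weeks left out where under 15 probes had 3 arrays. The black line goes from -0.29 at week 4 to 0.30 at week 5 on the left and from 0.01 to -0.48 on the right.

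Comparisons with the weeks between were added after the weekly values had been seen. From weeks 1 and 3 to weeks 5 to 7 limma called 125 of 7919 probes (1.58%), 99 higher and 26 lower. Of the 63, 23 were among them, and 62 had the sign they have in the late weeks. From weeks 5 to 7 to the late weeks it called 1 of 7919 (0.0126%), Dipk1b (-2.06 ± 0.34, limma adjusted p = 0.0422), which is not among the 63, with 487 at an unadjusted p under 0.05. From weeks 1 and 3 to week 4 it called 0 of 7892, with 277 at an unadjusted p under 0.05. For the probes that rose, the median difference was 1.05 up to weeks 5 to 7 and 0.03 from there to the late weeks, and for those that fell -0.75 and -0.28. The 63 were called from the same early and late weekly means that these comparisons use. Their signs and medians here are thus partly fixed by that choice. How many of all probes kept their sign was not computed.

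The late-minus-early difference was also measured in mice of the other diet and the other strain. In C57 high-fat limma called 351 probes (4.43%), 167 higher (2.11%) and 184 lower (2.32%), and in A/J low-fat 280 (3.54%), 204 higher (2.58%) and 76 lower (0.96%). Of the 63, 63 had the same sign in C57 high-fat, 62 in A/J low-fat and 63 in A/J high-fat. The share of all probes with the same sign was not computed, so these counts do not set the 63 apart. In C57 high-fat 52 were called too (82.5% of the 63 and 14.8% of the calls there), and in A/J low-fat 41 (65.1% and 14.6%). The median of the 32 was 1.00 in C57 low-fat, 1.02 in C57 high-fat, 0.86 in A/J low-fat and 0.75 in A/J high-fat, and that of the 31 was -0.96, -1.01, -0.79 and -0.90. The arms have no liver arrays in common but share the weeks and the kind of reference. They also share 1 estimate of spread per probe in the model, so calls in several arms are not independent. Across the 7919 probes, which are not independent, the differences correlated at 0.844 with C57 high-fat, 0.771 with A/J low-fat and 0.772 with A/J high-fat.

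Testing the difference of the differences between arms, limma called 0 of 7919 probes against C57 high-fat (0.391% at an unadjusted p under 0.05, smallest adjusted p = 1.00) and 0 against A/J low-fat (1.38%, smallest adjusted p = 0.792). With week as a random block, since the arms share weeks, it called 0 against C57 high-fat (138 at an unadjusted p under 0.05) and 1 against A/J low-fat (376). In the fit without the block, the median standard error of such a difference was 0.323, and its 95% interval reached 0.683 to either side. That fit leaves out the weeks the arms share. Its shares at an unadjusted p under 0.05 lay below the 0.05 that chance alone gives. Its errors may thus be too wide, and it may miss differences. Among the 63, the largest difference from C57 high-fat was 0.80, for 6330403K07Rik. The largest from A/J low-fat was 1.73, for Gfod2, a gene of an oxidoreductase family, which rose in C57 low-fat (1.19 ± 0.24) and had -0.54 in A/J low-fat. Scd1, not called in C57 low-fat, was called in C57 high-fat (0.78 ± 0.21, limma adjusted p = 0.0425) and in A/J low-fat (0.82 ± 0.21, limma adjusted p = 0.0430), and its difference between arms did not pass.

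**Figure D5:**
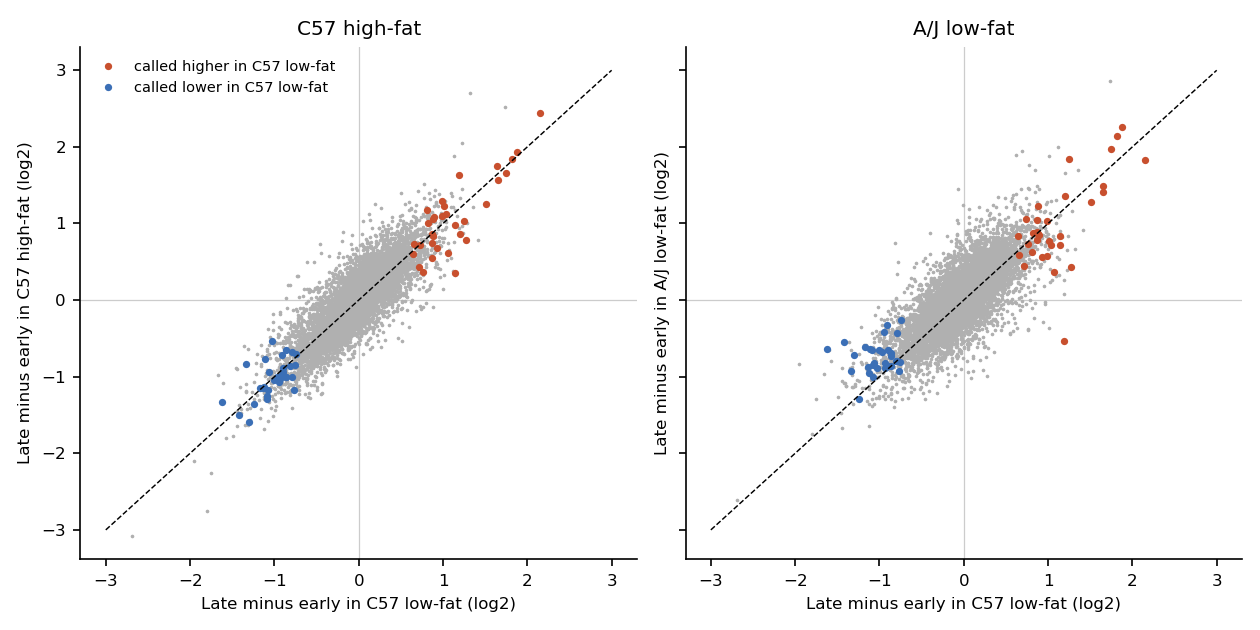
Late minus early (log2) in C57 low-fat (x axis) against the same difference in C57 high-fat (left) and A/J low-fat (right), each dot 1 of 7919 probes; red and blue, probes called higher and lower in C57 low-fat; dashed, equal differences. All 63 keep their sign on the left and 62 on the right, where Gfod2 lies at -0.54; the share over all probes was not computed.

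Genes with several probes show how far a single probe can be read. Among 346 genes with more than 1 tested probe, the late-minus-early differences of probes of 1 gene correlated at 0.03 and their levels at 0.10. In the 12 genes whose probes have the same accession the levels correlated at 0.68 and the differences at 0.09, and in the 334 with different accessions at 0.08 and 0.02. Whether the gene table names every probe correctly on all arrays was not tested, which bears on each gene named here. Eif4a2 has 9 tested probes of 1 accession, all with negative differences, from -0.66 to -1.62, of which 1 was called. Fam184a, Nudt21 and Pfkfb2 each have 1 called probe, at 0.81, 0.87 and 0.93, and another probe at -0.00, 0.03 and 0.18.

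Detection also set genes apart that could not be tested as levels, chosen here after their counts were seen. Mttp, needed to export lipoproteins, was measured on 1 of 20 early and 27 of 29 late arrays. Of 10 arrays a week it was measured on 0 at week 4, 10 at week 5, 4 at week 6 and 10 at week 7. The mitochondrial superoxide dismutase Sod2 was measured on 3 early and 29 late arrays, the lysosomal protease Ctsd on 2 and 28, the lipid enzyme Lpcat1 on 1 and 29 and the growth factor Igf1 on 2 and 25. Rrm2, a ribonucleotide reductase subunit, went the other way, from 19 to 5, as did the surface antigen Cd24a. An empty value is a spot without a ratio and not a level of 0, and the rule behind it is not given in the sources used here. In C57 high-fat, A/J low-fat and A/J high-fat the same thresholds gave 204, 134 and 119 probes measured late but not early, of which 118, 50 and 49 were among the 161.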

How the data were processed

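Liver RNA was measured against a pooled reference on spotted 2-colour arrays, per the labels. The values the authors deposited are ratios on a linear scale with a mean of 1 per array, 0.251% below 0, 0.271% at 0 and 42.4% empty. Image analysis, spot filter and normalization are not given in the sources used here, and scale and direction were read from the values. The number of weekly means, and within them of arrays, limits the precision. Log2 was taken of positive ratios with no pseudocount, and each array was centred on its median over the probes tested. Of 17280 positions 14717 are in the probe table, 14711 with 1 symbol and 6 with several, and 14416 matched the GRCm38.p6 gene table by Entrez identifier.

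A probe was tested if measured on at least 5 arrays of each C57 low-fat week and 3 of each other group. The model (limma 3.58.1, R 4.3.3) used 20 weekly means, of 4 arms by 5 weeks, with 8 arm-by-period levels and 12 residual degrees of freedom, so the other arms share the estimate of spread. In these weeks 1 repeated array was counted once, and 1 A/J low-fat array that correlated below 0.15 with the median of all arrays was left out. P-values were adjusted by Benjamini-Hochberg over 7919 probes. Named are the 10 largest rises and falls past 0.05 with separate weekly means, called list members and a few genes always given. The comparison, lists and rules were chosen with earlier results of these data known. Alternatives were other centring, normalization, filters, models and sets of weeks. The fit was checked first on simulated weekly means. These were drawn independently for each probe and week, with no week effect shared by arms or probes and no change in detection. The check therefore does not bear on such effects.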

Additional observations from a re-analysis of the deposited data

Results flagged for a closer look

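Among 140 groups of 4 to 10 arrays of 1 gene at 1 week, 15 held a value far from the others by Dixon's test, which chance flags in about 1 in 20 groups. The values of genes that rose were -5.57 for Bnip3 at week 11, where the nearest other array was at 0.37, -1.57 for Txn1 at week 11 (nearest -0.16) and 4.56 for Spopl at week 9 (nearest 1.05). Of genes that fell, Scn10a had -3.96 at week 11 (nearest -1.06), Myt1 -3.47 at week 9 (nearest -1.52), Gpc3 -2.34 at week 10 (nearest -0.98) and Uqcrb -1.72 at week 10 (nearest -0.74). Il33 had -1.55 at week 1 (nearest -0.31) and -3.83 at week 11 (nearest -1.66), and Ebi3 had -1.25 at week 3 (nearest -0.23). Of genes that were not called, Fasn had -0.33 at week 3 (nearest 0.17) and -0.78 at week 10 (nearest -0.26), Per2 -3.73 at week 10 (nearest -1.23), Dbp -3.38 at week 9 (nearest -0.96) and Nr1d1 0.95 at week 9 (nearest 0.40).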

How the results depend on the processing

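Limma called 63 probes in C57 low-fat. The count was 113 with arrays centred over all measured probes, 930 after quantile normalization, 232 with week 4 among the early weeks, 39 with a minimum of 3 arrays per week, 349 on single arrays with week as a random block and 2115 with no week term. It was 0 with weeks 4 to 7 as a level of their own (775 at an unadjusted p under 0.05), 0 in the 5 C57 low-fat means alone (1101) and 0 for a straight line over 9 weeks (1228). Leaving out 1 week gave 0 to 52. The causes were not tested. In each of these settings all 63 kept their sign. Where a setting used the same weekly means the sign could not change, so it is no support for the calls. C57 high-fat had 543 calls with no centring and 1276 after quantile normalization, against 351, and A/J low-fat 164, 1078 and, with weekly medians, 45, against 280. The difference between C57 low-fat and A/J low-fat had 1 call with week as a random block (376 unadjusted). After quantile normalization, late against weeks 5 to 7 had 7 calls, weeks 5 to 7 against early 1184 and week 4 against early 2. Dbp, not called, had 0.088 with weekly medians. No paired analysis was possible because early and late weeks share no sample numbers.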

Other observations

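Of the 125 probes called between weeks 1 and 3 and weeks 5 to 7 of C57 low-fat, 6 are given as examples, chosen after their values were seen and standing for no group. Higher at weeks 5 to 7 were Fmo1, a flavin monooxygenase (1.92 ± 0.37, limma adjusted p = 0.0134), Gsto1, a glutathione transferase (2.00 ± 0.30, limma adjusted p = 0.00216), and Ghr, the growth hormone receptor (1.36 ± 0.24, limma adjusted p = 0.00832). The fatty acid receptor Ppara (1.24 ± 0.28, limma adjusted p = 0.0286) and the coagulation factor gene F10 (limma adjusted p = 0.0153) were higher too. Lower was Gapdh, an enzyme of glycolysis (-1.57 ± 0.28, limma adjusted p = 0.00832). Against early weeks, the late weeks had 0.81 ± 0.32 for Fmo1, 1.03 ± 0.37 for Ghr and 0.83 ± 0.45 for Ppara, none of which passed. The probes at consecutive positions 11509, 11510 and 11511, of Bmp15, Bmx and Bnip3, all rose from early to late (0.89 ± 0.18, 0.83 ± 0.15 and 1.82 ± 0.31). Over 3880 pairs of neighbouring tested positions the differences correlated at -0.00.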
